A study of Schizosaccharomyces pombe with 4 samples.

Results

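The early pht1 deletion was set against the later wild type of a fission yeast (Schizosaccharomyces pombe) meiosis series: the array of the deletion at 1.5 h minus the array of wild type at 3 h after nitrogen withdrawal. These are 2 of the 4 arrays of the series, and all 2899 genes with a single name were taken, from a table of 4999 probe sets. All cultures were h+/h- diploids that carried ade6-210/216 and were heterozygous for his5-303 and leu1-32. The deletion diploid was in addition homozygous for ura4-D18 and for pht1 replaced by ura4+, and the other arrays, wild type at 1.5 h and the deletion at 3 h, are shown beside the comparison. Each combination of genotype and time holds 1 array of polyA RNA hybridized as labelled cRNA, so genotype and time both differ between the arrays compared and no difference has a replicate check. The labels do not say whether the times of a genotype came from 1 culture.

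Pht1 is the histone variant H2A.Z, which the SWR1 complex places in nucleosomes, often beside the start of genes. Starved fission yeast cells first switch on Ste11, the transcription factor of mating and meiotic entry, and the pheromone genes it drives. Premeiotic DNA replication follows, then the prophase in which Rec12 (the Spo11 homologue) breaks DNA on linear elements while dynein pulls the nucleus to and fro, and only later do the transcription factor Mei4 and its targets carry cells through the meiotic divisions and into spore formation. A comparison of an early mutant with a later wild type therefore asks which of these stages the mutant RNA already matched, exceeded or had not reached.

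Values are log2, and each difference is the deletion at 1.5 h minus wild type at 3 h unless another pair is named. Where 4 values of a gene are given, they stand in the order wild type 1.5 h, wild type 3 h, deletion 1.5 h, deletion 3 h. Genes were counted if the brighter of the 2 arrays exceeded its own 25th percentile, called the floor here, and 2333 did so. A difference of 1 log2 unit (2-fold) was called higher or lower, and a difference under 0.5 was called level. Values under 8.37, a level 1 unit above the deleted pht1, were treated as too dim to read, so a difference from such a value is given as a lower bound. The SD of a difference between 2 arrays, estimated over 2314 genes from the difference between the genotypes' changes with time, was 0.23, and 0.13 by the median absolute deviation.

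The pht1 probe set read 12.70, 12.86, 7.37 and 7.36, so the arrays matched their genotype labels. The ura4 probe set, which the marker restores, was lower by less, with a difference of -0.38. Among 6 markers of meiosis, ste11 and mei2 lay at or above the 90.6 percentile on both arrays compared, while the entry activator gene mei3 was dim on both (9.01 in wild type at 3 h and 8.46 in the deletion at 1.5 h). Of the growth markers, mid1 read 10.88 and 10.25 and adg1 9.76 and 10.17 on these arrays, and eng1 8.65 and 9.37. In RNA from whole cultures, fewer cells at a stage and less RNA per cell cannot be told apart.

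Most genes were level. Of the 2333 genes above the floor, 2093 (89.7%) differed by less than 0.5, and the median difference was -0.0062. There were 20 genes (0.857%) at least 2-fold higher in the early deletion and 41 (1.76%) at least 2-fold lower. Of the 20 higher genes, 12 belonged to the meu or spore wall lists described below. The 41 lower genes included 10 of the prophase lists, 7 of iron-sulphur and haem proteins and 17 that were low in the deletion at either time, with bio2 in the last 2 groups. Against wild type at 1.5 h the same deletion array had 60 genes 2-fold higher (2.57%) and 21 lower (0.901%), and that comparison shares the deletion array with the present one.

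**Figure D1:**
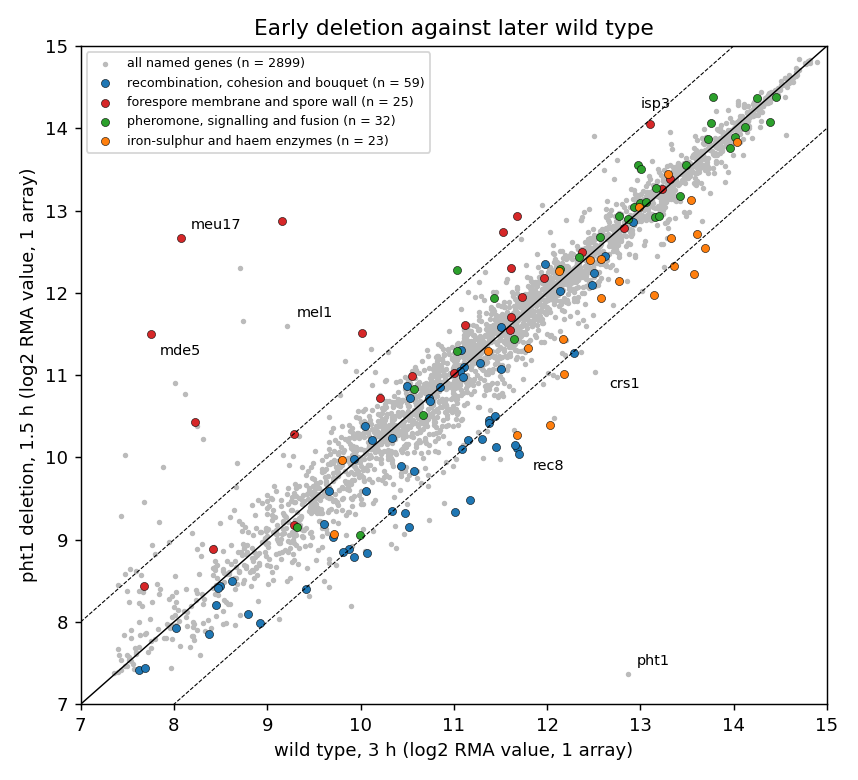
Log2 RMA value of each named gene in the pht1 deletion at 1.5 h (vertical) against wild type at 3 h (horizontal), 1 array each; the solid line marks equal values, the dashed lines a 2-fold difference, and colours mark groups of gene lists. Recombination, cohesion and bouquet genes (blue) include 31 of 39 that lie below the line, iron-sulphur and haem enzymes (orange) 18 of 21 below it, spore genes (red) 20 of 22 above it, and 26 of 30 pheromone genes (green) lie within 0.5 of it. The orange list was gathered after several of its members had been seen among the lowest genes.

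Many genes of meiotic prophase were under way in the early deletion but below the later wild type. The lists of break formation, linear elements, meiotic cohesion, strand exchange and the telomere bouquet held 59 measured genes, of which 39 lay above the floor. Of these 39, 31 were lower and 10 at least 2-fold lower, against 51.4% and 1.76% of all genes, and 0 were 2-fold higher. Level genes numbered 21 of the 39, against 89.7% of all genes. Members that passed the floor through the wild-type array alone had to be lower. Over all 59 measured genes, 50 were lower, against 52.1% of all genes with no floor. At least 2-fold lower were 13 of the 59, against 51 of all 2899 genes. The median difference of the 39 was -0.39. The median of the same 39 genes was 0.45 for the deletion against wild type at 1.5 h and 0.58 for wild type from 1.5 h to 3 h; these comparisons share arrays and are given side by side only.

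Linear elements are the fission yeast form of the chromosome axis on which breaks are made, and all 6 measured genes of this list, which includes the kinase gene mek1, were lower in the early deletion, against 52.1% of all genes with no floor. The axis gene rec10 read 8.17, 11.18, 9.49 and 11.38, a difference of -1.69. The HORMA protein gene hop1 read 9.24, 12.28, 11.27 and 12.69, a difference of -1.02. In both genes the early deletion stood between the wild-type times, and the deletion at 3 h was the highest array. The kinase gene mek1, which acts at breaks, read 8.80, 11.46, 10.12 and 11.69 (-1.33). For the linear element genes rec25 and mug20 the differences were -1.15 and -0.74. Below the floor, rec27 read 7.40, 8.92, 7.98 and 9.31, a difference of at least 0.55 below wild type when the early deletion is set to the 8.37 level.

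The break-forming genes themselves were dim, and 3 of 7 lay above the floor. The gene of the Rec12 partner rec15 read 7.79, 10.52, 9.15 and 11.14 (-1.36), and that of the core partner rec6 read 10.05, 11.38, 10.41 and 11.33 (-0.96). The third, rec14, which encodes a WD-repeat partner also used outside meiosis, was level (-0.12) and varied little over the arrays, from 10.98 to 11.17. Below the floor, rec12 read 8.83, 9.81, 8.85 and 9.75. The deletion at 1.5 h thus equalled wild type at 1.5 h for the Spo11 homologue, and the arrays at 3 h equalled each other. The value of rec24 in the early deletion (7.85) and both values of rec7 (7.69 and 7.45) were too dim to read, while mde2, a Mei4-dependent gene, read 7.58, 8.48, 8.42 and 10.66 and was level (-0.06).

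Of 4 measured genes of meiotic cohesion, 2 lay above the floor. Both passed it through the wild-type array alone, so they had to be lower. Without the floor all 4 were lower, against 52.1% of all genes. The meiotic kleisin gene rec8 read 8.44, 11.70, 10.04 and 11.96, a difference of -1.66. Its arm partner gene rec11 read 8.21, 11.09, 10.10 and 11.62, at -0.99 just inside the 2-fold line. The centromere protector gene sgo1 (-0.42) and moa1 (-0.21) lay below the floor. All 8 general cohesin genes above the floor were level, with a median of -0.26 and a range from -0.42 for wpl1 to -0.05 for the mitotic kleisin gene rad21.

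Strand exchange genes, which serve meiosis, repair or both, varied. The meiotic recombinase gene dmc1 read 8.73, 11.68, 10.11 and 12.02 (-1.56), and the Rad52-like gene rti1 read 8.50, 11.30, 10.22 and 11.83 (-1.08). Just under 2-fold were the crossover nuclease gene mus81 (-0.99), mcp7 and meu13 of the Mnd1-Hop2 pair (-0.94 and -0.93) and the mediator gene sfr1 (-0.94). Of these, mus81 stood apart: it read 9.19, 10.34, 9.34 and 10.26, so the early deletion lay 0.15 above wild type at 1.5 h. Below the floor, rdh54 (-0.998) and eme1, the partner of mus81 (-0.67), were lower too. The repair genes rad50 (0.37), nbs1 (0.23), rad54 (-0.07), rad57 (-0.02) and exo1 (0.08) were level. The list median was -0.12. Of 20 counted genes 13 were lower, 2 were 2-fold or more lower and 14 were level. The shares of all genes were 51.4%, 1.76% and 89.7%. Those that passed the floor through the wild-type array alone, such as mus81, had to be lower. Over all 26 measured genes 18 were lower, against 52.1% of all genes with no floor.

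The bouquet gathers telomeres at the spindle pole body and dynein then drags the nucleus. The spindle pole gene mcp6 read 8.14, 11.02, 9.34 and 11.20 (-1.68), and the dynein anchor gene num1 read 8.14, 11.66, 10.15 and 12.13 (-1.51). The dynactin gene arp1, which was in no list and follows from the rule on the lowest genes, read 7.85, 10.38, 8.90 and 10.57 (-1.48). All of them stood between the wild-type times, and the wild-type values at 1.5 h were too dim to place them further. Below the floor, the bouquet gene bqt1 (-1.23), the dynein intermediate chain gene dic1 (-1.14) and the dynactin gene ssm4 (-1.01) were lower as well, and dhc1, the dynein heavy chain gene, less so (-0.48). By contrast, the light intermediate chain gene dli1 read 9.89, 11.11, 11.09 and 11.44 and had reached the later wild-type level (-0.01). The other members above the floor were the telomere gene rap1, which read 10.23, 10.44, 9.89 and 10.10 (-0.54), and dlc1 (-0.39), bqt3 (-0.12), bqt4 (-0.06), kms1 (-0.0040) and taz1 (0.37), all level except rap1.

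**Figure D2:**
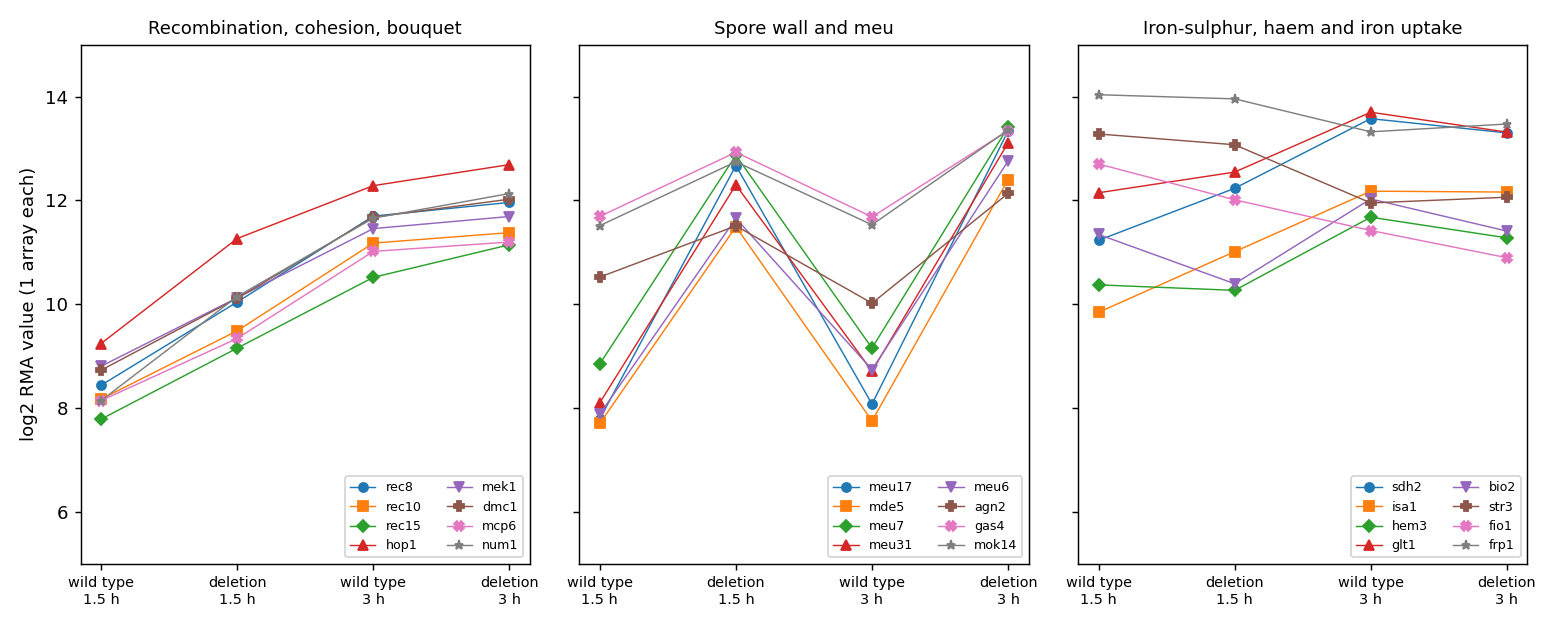
Log2 RMA values of selected genes on all 4 arrays (1 array each), placed in the order wild type 1.5 h, deletion 1.5 h, wild type 3 h, deletion 3 h; lines join the values of a gene. Prophase genes climb from left to right, spore wall and meu genes are higher on both deletion arrays than on both wild-type arrays, and iron-sulphur genes in the right panel are higher on the 3 h arrays while the iron uptake genes str3, fio1 and frp1 are lower there.

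Mating genes that rose at least 2-fold in wild type had already reached the later wild-type level, while genes of meiotic entry were mixed. Pheromone, pheromone signalling and cell fusion lists held 32 genes, 30 of them above the floor, and 26 of the 30 were level, with a median difference of 0.10. The share of level genes in these lists, 26 of 30, was near the 89.7% of all genes, whereas the same 30 genes had medians of 0.92 for the deletion against wild type at 1.5 h and 0.92 for the wild-type change with time. The M-factor gene mfm1 read 13.72, 14.46, 14.38 and 14.49 (-0.07), although near-identical M-factor copies may share its probes. The P-factor receptor gene mam2 read 13.17, 14.12, 14.01 and 14.02 (-0.11), and the M-factor transporter gene mam1 12.30, 13.20, 12.93 and 12.87 (-0.27).

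In the signalling path all 11 genes above the floor were level, from -0.15 for the Ras GTPase activator gene gap1 to 0.26 for the transcription factor gene map1. The G protein alpha subunit gene gpa1 differed by 0.11 and the MAP kinase gene spk1 by 0.15. A few P-cell genes exceeded the later wild type. The M-factor receptor gene map3 read 9.45, 11.04, 12.28 and 12.70 (1.24), the P-factor gene map2 read 11.97, 13.78, 14.38 and 14.67 (0.61) and the agglutinin gene map4 read 11.37, 12.97, 13.55 and 14.08 (0.58). In these 3 genes both deletion arrays exceeded both wild-type arrays, as they did in 20.4% of all genes. The carboxypeptidase gene sxa2 (0.50) and the formin gene fus1 (0.51), which acts in cell fusion, were higher by less. Below the floor, cfr1, needed for fusion, read 9.70, 9.99, 9.06 and 9.43 and was lower (-0.94).

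Of 7 regulators of the switch into meiosis above the floor 6 were level, a share near the 89.7% of all genes. Some of these, such as rst2 (-0.02) and sla1 (-0.07), hardly changed in wild type from 1.5 h to 3 h. Their level values therefore place no stage. Below the floor, mei3 read 7.69, 9.01, 8.46 and 9.57 (-0.55). The gene of the master regulator ste11 read 12.50, 13.46, 13.49 and 13.56 (0.02), and that of the RNA-binding protein mei2, which starts meiosis, 13.35, 14.05, 13.99 and 14.17 (-0.06). The kinase gene pat1, which holds Mei2 in check, differed by 0.18. The exception was rep1, an activator of premeiotic replication genes, which read 9.26, 11.27, 10.61 and 11.72 (-0.66). Of 25 premeiotic replication genes above the floor, 24 were level, against 89.7% of all genes, and the median was -0.01. The same 25 had a median change of 0.0029 in wild type from 1.5 h to 3 h. As a set, their level values therefore place no stage either. Lowest was nrm1, a repressor of the MBF replication factor (-0.62), and highest the kinase subunit gene dfp1 (0.33). The cyclin gene cig2 read 12.32, 13.24, 13.08 and 13.67, and differed by -0.17.

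The genes that exceeded the later wild type were chiefly those of the spore wall and the meu genes, a set named for being upregulated in meiosis. The 14 counted genes of the spore wall and coat had a median of 0.82, and 13 were higher, 6 of them 2-fold or more, against 48.6% and 0.857% of all genes. The 16 counted meu genes had a median of 2.17, and 9 passed the 2-fold line. In both lists, members that passed the floor through the deletion array alone had to be higher. Over all 15 measured spore wall genes 13 were higher, against 1388 of all 2899 genes. Of the 15, 6 passed the 2-fold line, and their list median with no floor was 0.69. Over all 28 measured meu genes 12 passed the 2-fold line and the median was 0.72. With no floor, 1.14% of all genes passed that line.

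Starch-degrading enzymes led. The glucoamylase-like gene meu17 read 7.79, 8.08, 12.67 and 13.34, at least 4.30 above the 8.37 level of wild type. The amylase-like genes mde5 and meu7 read 7.70, 7.75, 11.49 and 12.40, and 8.85, 9.16, 12.87 and 13.41. The difference of meu7 was 3.71 and that of mde5 at least 3.12. On the wild-type arrays these genes were dim at both times, and the 2 deletion arrays stood well apart from them. The same held for meu31, at 8.10, 8.71, 12.30 and 13.11 (3.59), and for meu6, at 7.88, 8.74, 11.66 and 12.76 (2.92). Genes whose wild-type value was too dim to read were meu15 (at least 2.53 higher), the hexose transporter gene ght6 (at least 2.40), the forespore membrane gene meu14 (at least 2.05) and meu25 (at least 2.01).

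Other spore wall enzymes were brighter in wild type, and some of them were higher in the early deletion. The alpha-glucanase gene agn2 read 10.52, 10.02, 11.51 and 12.13 (1.49), the beta-glucan transferase gene gas4 read 11.69, 11.68, 12.93 and 13.34 (1.25) and the alpha-glucan synthase gene mok14 read 11.51, 11.53, 12.74 and 13.35 (1.21). In each of these both deletion arrays lay above both wild-type arrays, and agn2 was 0.50 lower at 3 h than at 1.5 h in wild type. The beta-glucanase gene eng2 differed by 0.69 and the spore wall beta-glucan synthase gene bgs2 by 0.44. The alpha-glucan synthase genes mok12 (0.02) and mok13 (0.22) and the chitin deacetylase gene cda1 (-0.03) were level, as was the chitin synthase gene chs1 below the floor (-0.10).

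Not every spore gene followed that course, since isp3, meu10 and mde10 rose in wild type too. The gene of the outer spore coat protein isp3 read 7.99, 13.11, 14.05 and 14.51, so the early deletion was 0.95 above the later wild type. For the spore wall gene meu10 the values were 7.92, 11.12, 11.61 and 13.04 (0.49), and for the metalloprotease-like gene mde10 11.22, 12.38, 12.49 and 13.35 (0.11). These 3 genes had reached the 3 h level of wild type in the early deletion.

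Of 8 forespore membrane and septin genes above the floor, 5 were level: psy1 (-0.06), spo20 (0.07), spo14 (0.21), the septin gene spn2 (0.03) and spo15 (0.09), whose product at the spindle pole body is needed for forespore membranes. The meiotic septin gene spn7 read 9.36, 10.21, 10.72 and 11.95 (0.51), and spo3, which acts in forespore membrane growth, read 9.47, 9.29, 10.29 and 10.42 (0.9985, just under the 2-fold line). Below the floor, the meiotic septin gene spn5 read 8.30, 8.41, 8.88 and 10.65.

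Genes of the meiotic divisions fell on either side. The meiotic cyclin gene crs1 read 8.38, 12.52, 11.04 and 12.75 and was lower (-1.48), and the RNA-binding protein gene spo5 read 8.65, 13.53, 12.98 and 14.30 (-0.55). Below the floor, spo6, mfr1 and spo4, all too dim to read in wild type, were higher in the early deletion, and their bounds are small: the kinase subunit gene spo6 at 9.46 (at least 1.09), the anaphase-promoting complex activator gene mfr1 at 8.93 (at least 0.56) and the kinase gene spo4 at 8.44 (at least 0.07). The phosphatase gene cdc25 read 10.98, 10.26, 10.93 and 10.86 and was 0.67 higher, having dropped in wild type alone. The gene of the transcription factor mei4 itself was below the floor and level, at 8.16, 9.32, 9.20 and 10.45 (-0.13).

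The mug genes are a large set found in screens of meiotic expression. Their median was -0.01 over 93 above the floor, and 69 were level, a smaller share than the 89.7% of all genes. There were 9 at least 2-fold lower, against 1.76% of all genes, among them the prophase genes mcp6, num1 and rec25 and the meiotic genes mug45 (-1.39), mug8 (-1.08) and mug9 (-1.06). Above the floor mug110 alone was 2-fold higher, at 9.46, 9.84, 11.17 and 12.23 (1.33), against 0.857% of all genes. Over all 175 measured mug genes, 6 were 2-fold higher and 13 lower, against 33 and 51 of all 2899 genes.

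**Figure D3:**
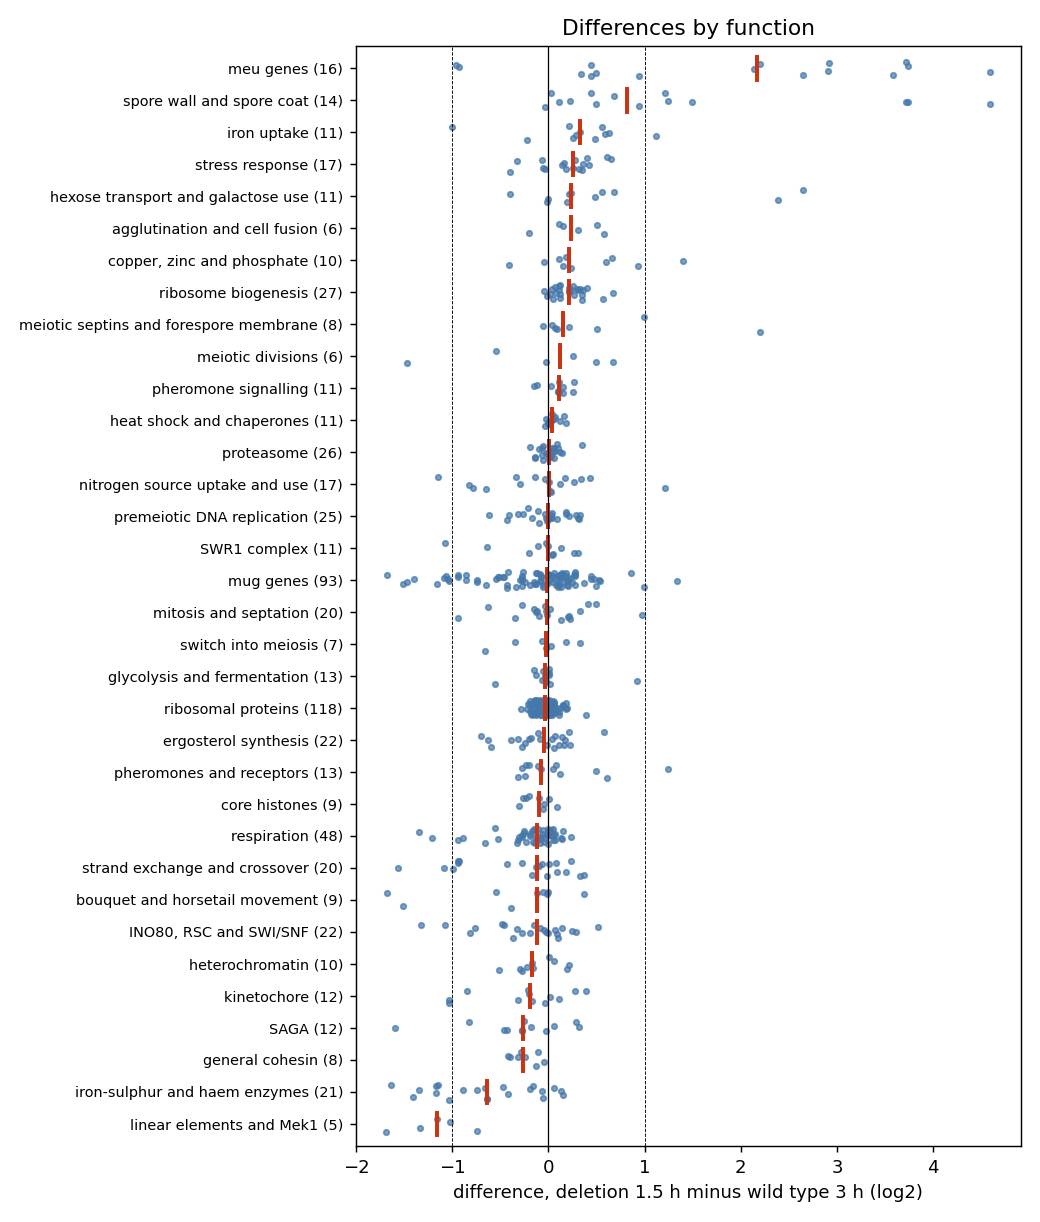
Difference of each gene (log2, deletion 1.5 h minus wild type 3 h, 1 array each) by gene list, for lists with at least 5 genes above the floor; points are genes, red bars list medians, numbers in brackets genes above the floor, and dashed lines a 2-fold difference. Linear element and iron-sulphur lists have the lowest medians, meu and spore wall lists the highest, and ribosomal protein and proteasome genes cluster at 0. The iron-sulphur list was gathered after several of its members had been seen among the lowest genes.

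The course of the wild type gives a scale for these differences. Between 1.5 h and 3 h, wild type raised 69 genes (2.96%) by 2-fold or more. For 20 of the 69 the early deletion was still at least 2-fold below wild type at 3 h, for 20 more it was 0.5 to 1 below, for 23 it was level, for 5 it was 0.5 to 1 above and for 1, map3, at least 2-fold above. Both the choice of these genes and the difference use the wild-type array at 3 h, which favours positions below it, so the counts are a description. The median difference over the 69 was -0.66.

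Where wild type at 1.5 h could be read, as for 59 of the 69 genes, the position of the early deletion was expressed as a share of the wild-type rise on the log2 scale. The median share was 67.8%, with quartiles of 48.4% and 104%. The 12 such genes of the prophase lists had a median share of 49.5%, from 13.03% for mus81 to 98.9% for dli1. The 13 genes of the pheromone and fusion lists had a median share of 109.7%, from 77.7% for the methyltransferase gene mam4 to 178% for map3. Apart from mus81 and dli1, the break gene rec6 (27.5%) also stood far from the median of the prophase genes.

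Other genes that had reached the later level were the nuclear fusion gene tht1 (8.47, 10.29, 10.02 and 11.47), the kinase genes ppk33 (-0.10) and shk2 (0.17) and the CENP-A chaperone gene scm3, which read 9.51, 10.61, 10.62 and 10.61. The ubiquitin protease gene ubp11 exceeded it (0.51). The 9 genes that fell at least 2-fold in wild type (0.386%) were all higher in the early deletion than in the later wild type, by 0.21 to 1.12, against 48.6% of all genes. Their choice and the difference both use the wild-type array at 3 h, which favours positions above it. They included the siderophore transporter gene str3, the ferroxidase gene fio1, the ferric reductase gene frp2, the septation gene adg1 and the sterol gene erg32.

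**Figure D4:**
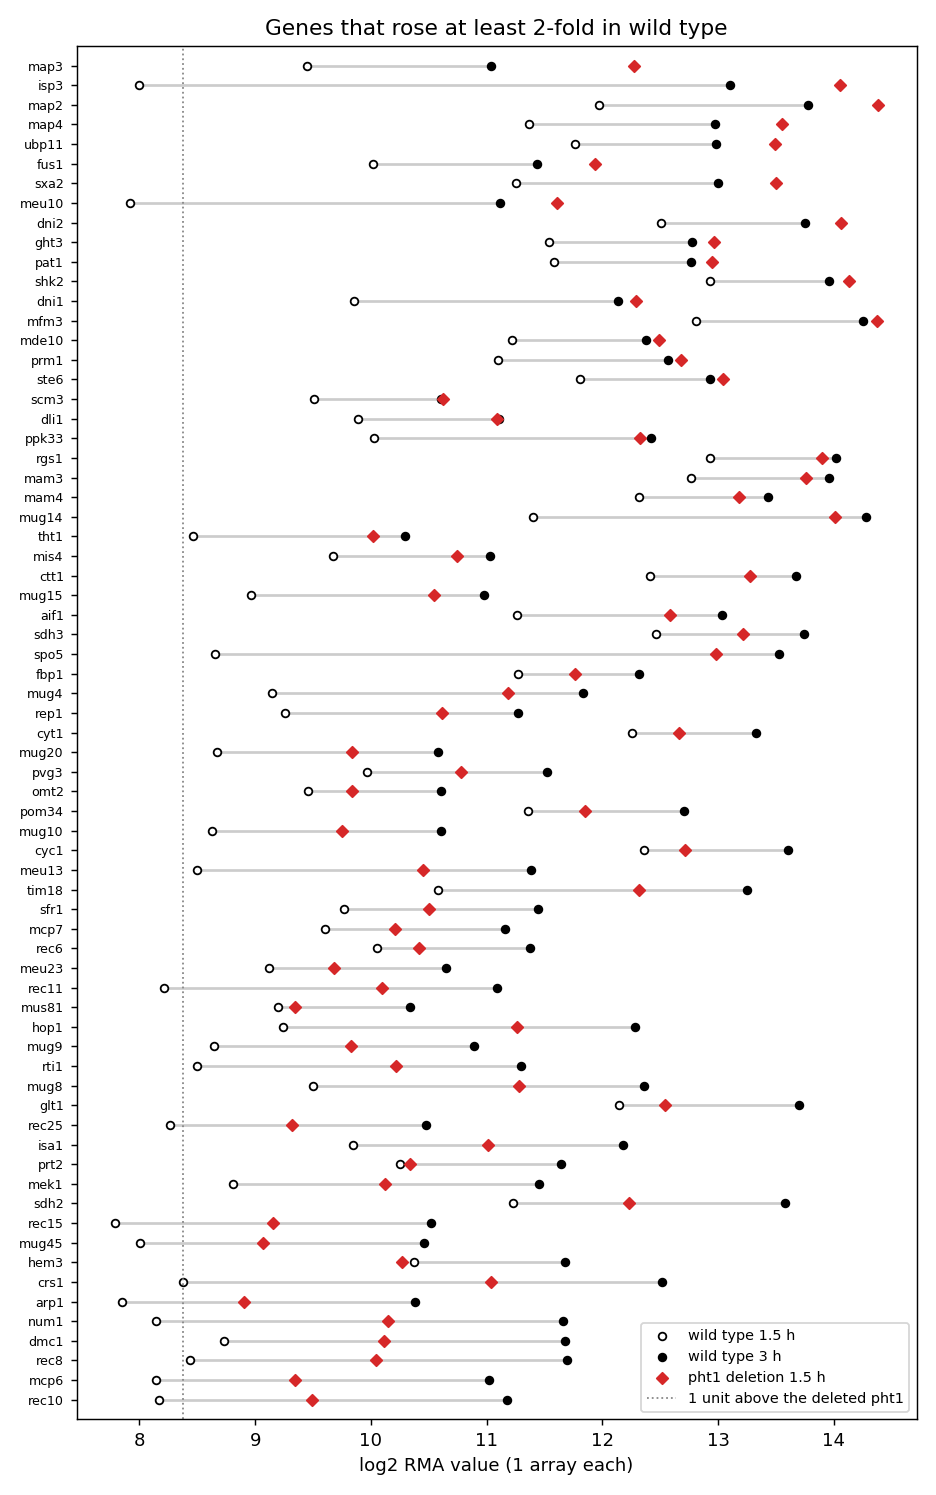
Log2 RMA values (1 array each) of the 69 genes that wild type raised by 2-fold or more from 1.5 h to 3 h, with wild type at 1.5 h as open circles, wild type at 3 h as filled circles and the pht1 deletion at 1.5 h as red diamonds. Genes are ordered by the difference between the diamond and the filled circle, from map3 at 1.24 to rec10 at -1.69, and the dotted line marks 8.37.

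Genes of iron-dependent proteins were also below the later wild type, but near wild type of the same time by their median. Genes of iron-sulphur and haem proteins were gathered into a list after bio2, hem3, isa1, sdh2, leu2 and glt1 had been seen among the lowest, so the list is no independent evidence of its direction. Of its 21 genes above the floor, 18 were lower and 7 at least 2-fold lower, against 51.4% and 1.76% of all genes, with a median of -0.64. The same 21 genes had a median of 0.59 for wild type from 1.5 h to 3 h. For the deletion against wild type of the same time it was -0.02 at 1.5 h and -0.05 at 3 h. These comparisons share arrays. The gene of the iron-sulphur subunit of succinate dehydrogenase, sdh2, read 11.23, 13.57, 12.23 and 13.30 (-1.34), and the iron-sulphur assembly gene isa1 read 9.84, 12.18, 11.01 and 12.16 (-1.17). The early deletion was about midway between the wild-type times in both.

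In several members the early deletion was at or below wild type at 1.5 h. The haem synthesis gene hem3 read 10.37, 11.68, 10.27 and 11.28 (-1.41), and the leucine synthesis gene leu2 read 12.22, 13.14, 11.97 and 13.08 (-1.17). The biotin synthase gene bio2 was below both wild-type arrays, at 11.34, 12.03, 10.39 and 11.41 (-1.63). The haem synthesis gene hem1 (-1.03) was below both too, as was, outside this list, the vacuolar iron transporter gene pcl1 (-1.001). The glutamate synthase gene glt1 (-1.15) and the cytochrome genes cyc1 (-0.89) and cyt1 (-0.66) were below the later wild type but above wild type at 1.5 h. The assembly genes isu1 (0.15), nfs1 (-0.06) and isa2 (0.14) were level.

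Iron uptake genes lay mostly on the other side. Of 11 above the floor, 9 were higher in the early deletion than in the later wild type, against 48.6% of all genes, with a median of 0.32. Against wild type at 1.5 h the median of the same genes was -0.37. The siderophore transporter gene str3 read 13.28, 11.95, 13.07 and 12.06 (1.12), the ferroxidase gene fio1 read 12.70, 11.42, 12.01 and 10.90 (0.59) and the ferric reductase gene frp1 read 14.04, 13.32, 13.96 and 13.47 (0.63). The ferrichrome synthetase gene sib1 was at 0.55. For str3 and frp1 the deletion at 1.5 h stayed near wild type at 1.5 h. The 2 lower genes were pcl1, which moves iron into the vacuole, and str2 (-0.23). Below the floor, fep1, the repressor of iron uptake, was lower (-0.77).

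Copper and sugar genes included some of the largest excesses. The metallothionein gene zym1 read 12.83, 12.51, 13.90 and 14.27 (1.40). The copper transporter genes ctr4, at 11.81, 11.72, 12.66 and 10.30 (0.93), and ctr5, at 12.88, 12.72, 13.38 and 11.92 (0.66), were highest of all arrays in the early deletion and lowest in the late one. The alpha-galactosidase gene mel1 read 9.59, 9.22, 11.60 and 10.71 (2.39), while gal10 (0.48), gal1 (0.22) and gal7 (-0.01) were level. The main hexose transporter gene ght5 was level (-0.0023). The proton pump gene pma1 was level at -0.03, and its relative pma2, below the floor, read 7.45, 7.47, 10.02 and 10.80, at least 1.65 higher than the 8.37 level.

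Of 17 nitrogen genes above the floor 12 were level, a smaller share than the 89.7% of all genes, with a median of 0.0044. The autophagy protease gene isp6 read 14.17, 14.24, 14.24 and 14.21, and the permease gene isp4 differed by 0.17. The exceptions were the GABA transaminase gene uga1, at 10.48, 10.11, 11.32 and 10.26 (1.21), and on the lower side glt1, the ammonium transporter gene amt1 (-0.83), the uracil permease gene fur4 (-0.78) and the glutamine synthetase gene gln1 (-0.65).

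Growth functions were mostly level, as were 89.7% of all genes. Level genes made up 84.6% in glycolysis, 85.4% in respiration and 92.6% in ribosome biogenesis, each near that share. All 118 ribosomal protein genes above the floor were level, from -0.29 to 0.39 with a median of -0.03, and so were all 26 proteasome genes and all 11 chaperone genes. All 9 core histone genes above the floor were level, with the histone gene hht1 lowest (-0.31), though near-identical histone copies may share probes. Of 13 glycolysis genes 11 were level, the exceptions being the enolase gene eno102 (0.92) and the gluconeogenic gene fbp1 (-0.55). In ribosome biogenesis 25 of 27 genes were level and 25 lay above 0, against 48.6% of all genes, with a median of 0.21, led by nop16 (0.67) and gar2 (0.56). Stress genes had a median of 0.26 over 17, with the phosphatase gene pyp1 at 0.65 and the transcription factor gene atf1 at 0.60. Of 48 respiration genes, 41 were level and the lowest were sdh2 and coq8 of ubiquinone synthesis (-1.21).

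A further group of lower genes was low in the deletion at either time. Of the 41 lower genes, 20 were among those that rose in wild type. Another 17 were at least 0.5 below wild type of the same time at 1.5 h and at 3 h, as were 3.3% of all genes. The 17 had already been chosen as 2-fold lower than wild type at 3 h. In 16 of them wild type changed by less than 0.5, which with that choice puts them below wild type at 1.5 h by 0.5 or more. The 3.3% is therefore no measure of enrichment. The share of all genes with so small a wild-type change was not counted. These comparisons share arrays with the present one. Apart from pht1, the SAGA subunit gene sgf73 read 11.73, 12.07, 10.47 and 10.74 (-1.60), the U1 snRNP gene usp109 read 11.56, 11.49, 9.99 and 9.99 (-1.51) and the phosphoinositide kinase gene its3 read 10.66, 10.73, 9.23 and 9.53 (-1.50). In these genes both deletion arrays lay below both wild-type arrays, as they did in 26.3% of all genes. Among the 17, bio2 did not, since its deletion value at 3 h exceeded wild type at 1.5 h.

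The same held for the cytochrome oxidase assembly gene coa1 (-1.45), the remodeller subunit genes arp9 (-1.32) and ssr1 (-1.07), the SWR1 subunit gene swc5 (-1.07) and the kinetochore genes mis14 (-1.04) and ask1 (-1.03). Their complexes held somewhat fewer level genes than the 89.7% of all genes. In SAGA 10 of 12 genes above the floor were level, with a median of -0.26, and in the INO80, RSC and SWI/SNF lists 17 of 22, with a median of -0.12. In the SWR1 complex 9 of 11 were level, with swr1 itself at 0.31. Of 10 heterochromatin genes 9 were level.

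A formal test was possible only by pooling all 4 arrays. In limma's fit with genotype and time as additive terms, the contrast of genotype minus time equals the difference reported here, and its 1 residual degree of freedom holds array noise and any unequal response of the genotypes to time. Of 2314 genes fitted, 4 were called higher (0.173%) and 1 lower (0.0432%) at a Benjamini-Hochberg adjusted p of 0.05. They were meu17 (4.59 with a standard error of 0.19, adjusted p = 0.0118 by limma), meu7 (3.71, standard error 0.14), meu31 (3.59, standard error 0.14), meu6 (2.92, standard error 0.17) and pht1 (-5.49, standard error 0.17). Some prophase genes had wide errors, for example rec8 with a standard error of 0.50 and rec10 with 0.43, and the fit called neither. Median standard errors were 0.41 for linear elements and 0.50 for meiotic cohesion. They were 0.19 for break formation, 0.16 for strand exchange and 0.15 for the bouquet. The lists of pheromones and receptors (0.34) and of cell fusion (0.42) had wide errors too. Whether array noise or an unequal response to time widened them was not tested. The p-values of the fit cover only how these 4 arrays vary, since no culture was repeated. The calls depended on the processing: none held with the floor at the array median, and more genes were called after quantile normalization.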

How the data were processed

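The deposited table holds log2 values that the authors computed with RMA, per the submitters' processing notes; which RMA version, and on which arrays, is not given in the sources used here. RMA sets all arrays to a common distribution, so a difference between arrays is relative to the other transcripts on each array. Array medians were 11.23 to 11.27. The number of arrays limits the precision. The platform annotation paired 2917 of the 4999 probe sets with 1 symbol and 20 with several, which left 2062 without a name. Symbols were updated through the gene identifier (2914 matched) with a RefSeq table of assembly ASM294v3. Where a gene had more than 1 probe set (14 genes), the brightest on average was used.

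The members and the 37 gene lists were chosen with earlier results of these data known, and 4 matches reached through names of other genes were left out. Named genes were pht1, ura4, the 12 highest and 12 lowest, the extremes among the wild-type rising genes, the genes called by the fit, and members of the lists; ubp11, tht1, ppk33, shk2 and some single genes were named after their values were seen. The steps were tested on simulated data. The fit was made with limma 3.58.1 in R 4.3.3, and the rest with pandas 2.3.3 and statsmodels 0.14.6 under Python 3.11.15.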

Additional observations from a re-analysis of the deposited data

Results flagged for a closer look

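Probe sets with no single gene name were left out of the comparison, and they held signal too. Among 1551 that passed the floor, the early deletion was 2-fold or more above the later wild type in 26 (1.68%) and below it in 15 (0.967%). The named genes had 0.857% and 1.76%.

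From 1.5 h to 3 h, agn2 and zym1 moved in opposite directions in the genotypes. The spore wall glucanase gene agn2 changed by -0.50 in wild type and by 0.63 in the deletion, a gap of 1.13. The metallothionein gene zym1 changed by -0.32 and 0.36, a gap of 0.68. With 1 array each these gaps were not tested.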

How the results depend on the processing

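With the floor at the array median, 13 genes were at least 2-fold higher, 25 lower and 13 rising genes 2-fold below; with no floor 33 were higher, and at a 3-fold threshold 11 were higher, 6 lower and 3 rising genes below. The limma fit called 0 of 1611 genes with the median floor (241 at an unadjusted p under 0.05), so it missed pht1 too, and 26 after quantile normalization, which included the 5 of the fit reported. With the median floor, list medians were -1.66 for meiotic cohesion, -0.35 for strand exchange, -0.55 for the divisions, 1.08 for the spore wall, 2.92 for meu genes, -0.045 for the kinetochore and 0.48 for iron uptake. With no floor they were -0.53 for break formation, -0.70 for meiotic cohesion, -0.43 for the bouquet, 0.38 for the divisions, 0.34 for septins and forespore membrane, 0.69 for the spore wall, 0.72 for meu genes and 1.26 for the proton pumps. The floor changes which genes are counted, and it turned the sign of the divisions (0.12 as reported) and of the proton pumps (-0.03). The other 223 values compared kept to within 1.5 times for counts or 0.13 for medians. No paired analysis was possible because each group has 1 array. Dim genes are limited by signal near background.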
